A study of Arabidopsis thaliana with 6 samples.

Results

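Cyclin-dependent kinases (CDKs) and their CKS subunits are the enzymes that move a cell through division. The 7 genes described here are the A-type kinase CDKA;1, the B-type kinases CDKB1;1, CDKB1;2, CDKB2;1 and CDKB2;2, and the subunits CKS1 and CKS2. They were taken by locus identifier, and all 7 were found among the 27826 loci of the table. They were measured in Arabidopsis thaliana embryos at the 16-cell stage, 72 h after pollination by hand. The 3 nuclear arrays carry RNA from embryo nuclei isolated with INTACT, a two-component labelling system that tags nuclei so that they can be captured, here with a marker of the whole embryo. The 3 cellular arrays carry total RNA from embryos isolated with a micromanipulator. By their labels all 6 samples are biological replicates, with no strain or mutant stated and no promoter given for the labelling system. Levels are given below as log2 of the RMA intensity, always in the order of replicates 1, 2 and 3. Isolation method and RNA compartment change together between the groups and cannot be told apart.

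A plant CDK is active only when bound to a cyclin, and the cyclin and the phosphorylation of the kinase set when and on what it acts. CDKA;1, the plant counterpart of the yeast Cdc2 kinase, works at the entry to DNA replication and to mitosis and is transcribed throughout the cycle, whereas B-type kinases are found in plants and their transcripts accumulate from replication to mitosis, those of the CDKB2 class close to mitosis. CKS proteins are small docking factors that bind the kinase and help it to phosphorylate substrates at several sites.

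The array values bear on the labelled tissue in both groups. Of 17 embryo regulators, 15 had all nuclear arrays below all cellular arrays, against 14.4% of all loci tested, and the summed intensity of the list was 265 to 342 on nuclear arrays against 969 to 2485 on cellular arrays. Limma called 10 of the 17 lower and 0 higher, against 4.71% and 1.15% of all loci. WOX2, a homeobox regulator of early apical cells, read 3.11, 2.84 and 2.24 in nuclear RNA against 8.71, 8.10 and 6.10 in cellular RNA. LEC1, a regulator of embryo identity, read 2.26, 2.20 and 2.26 against 6.60, 5.99 and 6.24. The medians of the 6 arrays lay between 2.47 and 2.68, so LEC1 was below the middle of every nuclear array and WOX2 near it, while the auxin response factor MP, with the highest mean of the list over all 6 arrays, read 5.76, 5.99 and 5.23 on the nuclear arrays. The seed coat is the maternal tissue around the embryo. Of its 20 markers, 19 had a higher nuclear than cellular mean, against 60.9% of all loci. All nuclear arrays lay above all cellular arrays for 3 of them (AHA10, DFR and TT8), against 18.6% of all loci. Limma called 0 of the 20 in either direction, against 1.15% higher and 4.71% lower of all loci. At an unadjusted p under 0.05 in limma 4 were higher (TT12, AHA10, DFR and SBT1.7), as were 2764 of all 27241 loci. The summed intensity of the list was 3332 to 6384 on nuclear and 565 to 4072 on cellular arrays. BAN, an enzyme of tannin synthesis, read 9.70, 7.59 and 8.40 against 5.25, 7.44 and 8.73, and TT12, a tannin precursor transporter, read 6.37, 5.57 and 4.44 against 3.07, 3.23 and 4.65. Only PRX36 of the 20 lay below the median of all 6 arrays. Of 10 endosperm markers 6 did so, AGL62 among them, and the summed intensity of that list was 36.7 to 73.0 on nuclear and 35.4 to 49.6 on cellular arrays. The brightest of these was PHE1, at 4.95 on nuclear replicate 2 and between 2.00 and 3.28 on the other arrays. The part that RNA of other tissues plays in the results below was not tested. In such bulk samples, fewer cells of a type and less RNA per cell cannot be told apart.

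CDKB2;1 (AT1G76540_at) was the 1 gene of the 7 that passed the test, and its transcript was 11.1-fold lower in nuclear than in cellular RNA. The background for that count is the 4.71% of all loci tested that were called lower. It read 2.99, 4.32 and 3.06 in nuclear RNA against 7.02, 7.81 and 5.96 in cellular RNA. Nuclear replicates 1 and 3 were not far above their array medians of 2.56 and 2.57. Without detection calls, the size of the fold depends on how such dim levels are read. The groups did not overlap: the highest nuclear array, replicate 2, stayed below the lowest cellular array, replicate 3. The means were 3.46 ± 0.75 and 6.93 ± 0.93 (SD, n = 3), and the log2 change, nuclear minus cellular, was -3.47 (SE 0.57, 95% interval -4.84 to -2.09). As a fold this interval runs from 4.26 to 28.7. The adjusted p was 0.0241 in limma, which was fitted to all 27241 loci tested and corrected over all of them by Benjamini-Hochberg. Of the 27241 loci tested 0.727% had a more negative change. It no longer passed when nuclear replicate 1 (adjusted p = 0.0673), nuclear replicate 3 (0.0637), cellular replicate 1 (0.0893) or cellular replicate 2 (0.0820) was left out, while the change stayed between -3.95 and -3.03 with any 1 array left out.

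CDKB2;2 (AT1G20930_at), the close copy of that gene, also had all nuclear arrays below all cellular arrays, but it did not pass. Its levels were 2.38, 2.30 and 2.41 in nuclear RNA against 4.67, 3.93 and 3.02 in cellular RNA. The nuclear values lay within 0.11 of each other and below the median of their arrays, whereas the cellular values spread over 1.65, with replicate 1 highest and replicate 3 lowest. The log2 change was -1.51 (SE 0.41, 95% interval for this gene alone -2.51 to -0.51, adjusted p = 0.0915). Without cellular replicate 3 it was -1.94 and passed (adjusted p = 0.0217). Cellular replicate 3 was also the cellular array with the highest seed coat median, 6.59 against 3.40 and 5.40 on replicates 1 and 2, and the lowest embryo marker median, 5.57 against 7.19 and 5.97. It was the cellular array most like the nuclear ones over all genes, with a mean Pearson correlation of 0.806 to them, against 0.699 and 0.745 for replicates 1 and 2. The table has no detection calls, so whether nuclear levels this dim are above background is not known.

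**Figure D1:**
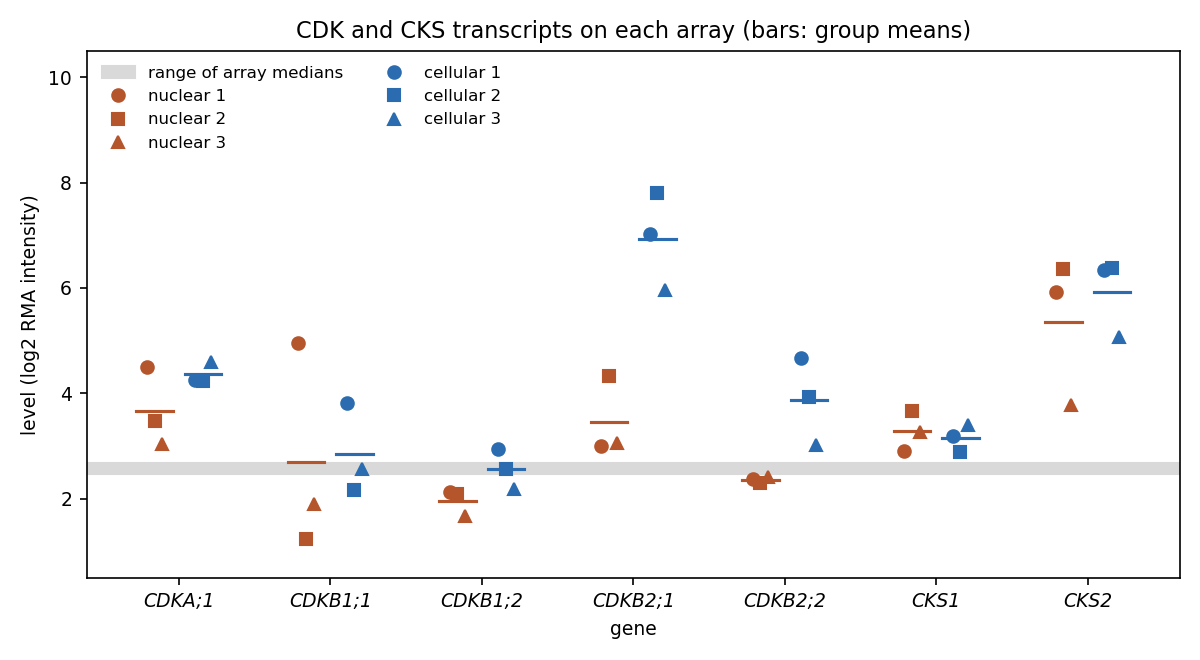
Levels of the 7 CDK and CKS genes on each array, as log2 RMA intensity, with nuclear arrays in brown and cellular arrays in blue, a symbol per replicate, bars at group means and a grey band over the range of array medians (2.47 to 2.68). CDKB2;1, CDKB2;2 and CDKB1;2 have all nuclear points below all cellular points, and the points of the other 4 genes overlap.

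The B1-class kinases act earlier, from replication onwards, and are known for their role with A2-type cyclins in keeping cells dividing. CDKB1;2 (AT2G38620_at) was dim throughout, at 2.13, 2.09 and 1.67 on nuclear against 2.94, 2.57 and 2.19 on cellular arrays. Its groups did not overlap, although the gap between nuclear replicate 1 and cellular replicate 3 was small beside the cellular range of 0.75. The change was -0.61 (SE 0.26, 95% interval -1.24 to 0.03, adjusted p = 0.232), and it was above the array median on 2 of 6 arrays.

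CDKB1;1 (AT3G54180_at) varied more between replicates than between groups. It read 4.95, 1.24 and 1.90 in nuclear RNA against 3.81, 2.16 and 2.57 in cellular RNA. Replicate 1 was the highest array of each group, and nuclear replicate 1 was above every other array. Its nuclear range of 3.72 exceeded that of the other 6 genes in either group, and the change of -0.15 (SE 1.00, adjusted p = 0.937) had a 95% interval from -2.58 to 2.28. These data therefore leave room for a difference of several fold in either direction, and the estimate was -1.28 without nuclear replicate 1 and 0.58 without nuclear replicate 2.

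CDKA;1 (AT3G48750_at, CDC2 in RefSeq), the kinase of the whole cycle, was above the array median on all 6 arrays. It read 4.49, 3.48 and 3.04 on nuclear arrays and 4.25, 4.24 and 4.60 on cellular arrays. The cellular values lay within 0.35 of each other, and nuclear replicate 1 fell among them while nuclear replicates 2 and 3 lay below. The change was -0.69 (SE 0.39, 95% interval -1.63 to 0.25, adjusted p = 0.328). Without nuclear replicate 1 it was -1.10, also short of the threshold.

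Neither CKS subunit gene passed. CKS2 (AT2G27970_at) read 5.91, 6.35 and 3.77 on nuclear and 6.34, 6.39 and 5.07 on cellular arrays. Replicate 3 was the lowest in each group and nuclear replicate 2 reached the cellular level, so the groups overlapped. Its change was -0.58 (SE 0.74, 95% interval -2.37 to 1.20, adjusted p = 0.643), and without nuclear replicate 3 it was 0.20. CKS1 (AT2G27960_at) read 2.91, 3.67 and 3.27 against 3.18, 2.89 and 3.40, with nuclear and cellular arrays interleaved. Its change of 0.12 (SE 0.27, adjusted p = 0.790) had the narrow 95% interval of -0.52 to 0.77, and it turned to -0.07 without nuclear replicate 2 and to -0.01 without cellular replicate 2. CKS1 and CKS2 are neighbours on chromosome 2 with 0 annotated genes between them. The sources used here give no probes, and cross-hybridisation between the copies was not tested.

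Of the 7 genes, 0 were higher past the threshold, against 1.15% of the 27241 loci tested. At an unadjusted p under 0.05 limma gave 2 lower and 0 higher of the 7. Over all 27241 loci it gave 3630 lower and 2764 higher. Those with all nuclear arrays below all cellular arrays were 3 of 7, against 14.4% of all loci, and those with all above were 0 of 7, against 18.6%. The median change of the 7 was -0.61 and that of all loci 0.13. With so few genes these shares are a description only. Apart from the CDKB2 genes, the 95% intervals of the other 5 all hold 0 and overlap each other.

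Whether close copies changed by unequal amounts was tested from the log2 difference between them on each array, in 3 pairs. CDKB2;1 minus CDKB2;2 was 0.61, 2.03 and 0.65 on nuclear against 2.35, 3.87 and 2.94 on cellular arrays. All nuclear values lay below all cellular values, by 1.96 between the means (nuclear minus cellular -1.96, from 1.10 ± 0.81 and 3.06 ± 0.77, SD, n = 3), so that the difference was larger than the spread between replicates. The exact two-sided permutation test gave p = 0.1, the smallest that 3 against 3 arrays can give, and 0.3 after Benjamini-Hochberg adjustment over the 3 pairs. After cyclic loess between arrays the groups of this pair overlapped (difference -1.60, exact permutation p = 0.2). CDKB2;2 read 2.38, 2.30 and 2.41 on the nuclear arrays, below their medians. Whether its fall was cut short at such dim levels, which would widen the difference between the copies, was not tested.

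The other pairs overlapped between groups. CKS1 minus CKS2 was -3.01, -2.68 and -0.51 on nuclear and -3.15, -3.50 and -1.66 on cellular arrays, with replicate 3 apart from the others in both groups (difference of means 0.71, exact permutation p = 0.5, adjusted 0.75, and a difference of -0.071 without nuclear replicate 3). The CDKB1 pair, first minus second, was 2.82, -0.85 and 0.24 against 0.87, -0.41 and 0.37 (difference 0.46, exact permutation p = 0.9, adjusted 0.9), and its difference was -0.59 without nuclear replicate 1 and 1.25 without nuclear replicate 2. Only nuclear replicate 1 stood apart in that pair.

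**Figure D2:**
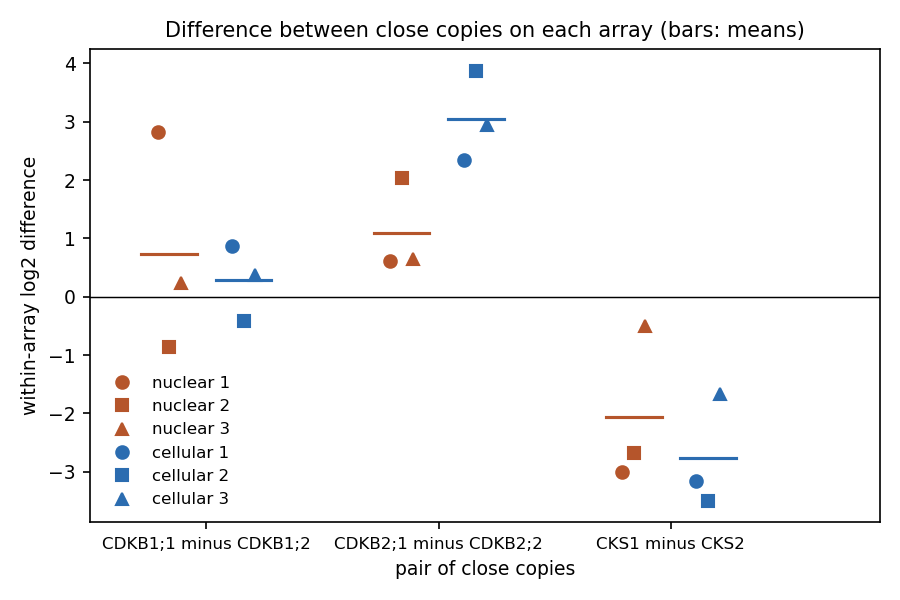
Log2 difference between the 2 genes of each pair of close copies on every array, with nuclear arrays in brown, cellular arrays in blue and bars at group means. For the CDKB2 pair the nuclear arrays (0.61 to 2.03) lie below the cellular arrays (2.35 to 3.87), and the other pairs overlap.

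The partners and regulators of these kinases were followed in 6 lists with 51 genes in all, of which 13 were lower and 0 higher past the threshold (6 lower without cellular replicate 2), against 4.71% and 1.15% of all loci. B-type cyclins, the mitotic partners of CDKs, were lower in 8 of 9 cases, with a median log2 change of -3.63. CYCB1;4 read 2.36, 2.39 and 3.39 in nuclear RNA against 7.91, 7.66 and 6.44 in cellular RNA, a fall of 24.7-fold (log2 SE 0.48, adjusted p = 0.00797). CYCB2;3 fell 22.2-fold (SE 0.23, adjusted p = 0.00245), from cellular levels of 7.08, 6.98 and 6.60 to nuclear levels of 2.50, 2.15 and 2.60. These nuclear levels were at or near the array medians, except for the first gene on replicate 3, and without detection calls the size of both falls depends on how such dim levels are read. The exception among the 9 was CYCB2;1, named after its value was seen, which was dim at 1.73 to 2.86 on all arrays and had a change of -0.64 (adjusted p = 0.261). Without cellular replicate 2 the B-type cyclins called lower were 5 of 9.

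Activators of the anaphase-promoting complex, which marks cyclins for destruction, and the mitotic MYB3R factors held 3 falls in 7, with a median of -1.43. Of all loci 4.71% were called lower. CCS52B read 3.59, 3.82 and 2.72 on nuclear and 6.83, 6.09 and 5.86 on cellular arrays (7.39-fold lower, adjusted p = 0.0140). CDC20.2 was 6.25-fold lower (adjusted p = 0.00827), at 2.37, 2.71 and 3.20 on nuclear against 5.68, 5.38 and 5.15 on cellular arrays. Its nuclear levels were near the array medians except on replicate 3, so the size of that fall depends on how dim levels are read. Its copy CDC20.1 was 4.97-fold lower (adjusted p = 0.0212), with nuclear levels still at 6.17, 5.39 and 4.90. CDC20.1 lost the call after cyclic loess between arrays and without nuclear replicate 2 or cellular replicate 1 or 2 (adjusted p up to 0.0952), and CCS52B without cellular replicate 2 (adjusted p = 0.0655). Shared signal between the CDC20 copies was not tested.

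A-type cyclins, of which the A2 class partners CDKB1, had 1 fall in 7 and a median of -1.87, with 4 genes whose nuclear arrays all lay below the cellular ones (14.4% of all loci did). CYCA2;4 read 3.15, 2.92 and 3.26 on nuclear and 7.14, 6.47 and 5.29 on cellular arrays, a 9.13-fold fall (log2 SE 0.47, adjusted p = 0.0172). That call was lost without nuclear replicate 1 or 2, without cellular replicate 2 and with the replicate number as a block. D-type cyclins, which act at the start of the cycle, had 1 fall in 9 and a median of -0.16 (-0.096 without cellular replicate 1). The 1 fall was that of CYCD3;2, at 3.28, 4.22 and 5.04 against 7.33, 7.39 and 6.05 (6.67-fold, adjusted p = 0.0436), a call lost after cyclic loess, after quantile normalization, with the replicate block, and without replicate 1 or 2 of either group (adjusted p up to 0.157). In that list the values lay on both sides of 0, from -2.74 to 0.94. With 1 fall in each of the A-type and D-type lists, against 4.71% of all loci, these counts are a description only.

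The kinases outside the cell division core and the inhibitors gave 0 calls in either direction by limma. The 9 genes of the CDKC to CDKG classes include kinases of transcription and of CDK activation. Their changes lay between -0.72 and 0.77. At an unadjusted p under 0.05 in limma 1 was higher and 0 lower, against 2764 higher and 3630 lower of all 27241 loci. Among these 9, CAK1AT (CDKF;1), a CDK-activating kinase, had the lowest p, with a change of 0.77 (SE 0.31, adjusted p = 0.205). CDKD;1, a kinase related to the animal CDK-activating kinase, came next at -0.60 (SE 0.27, adjusted p = 0.246). The median of the 9 was -0.59 as deposited, -0.25 after cyclic loess, -0.12 without nuclear replicate 3 and -0.29 without cellular replicate 2. Another list held 10 genes, the inhibitors KRP, SIM and SMR1 and WEE1, which phosphorylates CDKs. Of these, 2 were lower and 0 higher at an unadjusted p under 0.05 in limma. Over all 27241 loci, 3630 were lower and 2764 higher at that threshold. KRP3 had a change of -1.54 (SE 0.47, adjusted p = 0.123) and WEE1 of -1.38 (SE 0.55, adjusted p = 0.197), and both passed without cellular replicate 3. The median of -0.12 in that list became 0.17 after cyclic loess, 0.13 without nuclear replicate 2 and -0.33 without nuclear replicate 1.

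**Figure D3:**
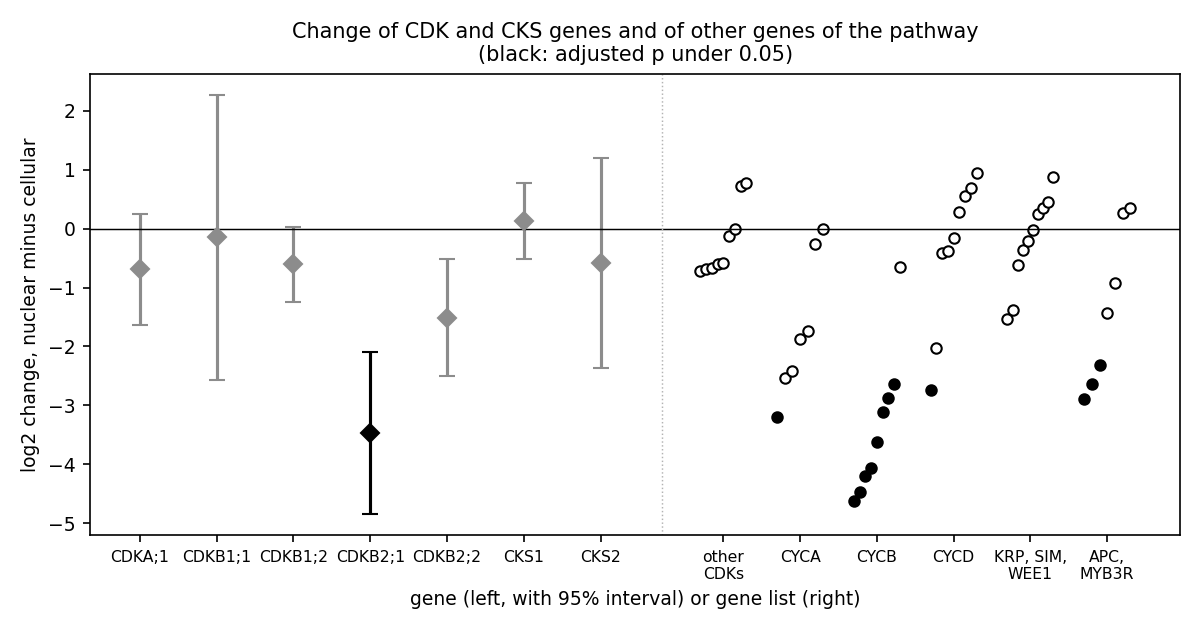
Log2 change, nuclear minus cellular, of the 7 CDK and CKS genes with 95% intervals (left) and of the genes of the 6 pathway lists as points (right), with those past an adjusted p of 0.05 in black. CDKB2;1 at -3.47 lies within the range of the B-type cyclins (-4.63 to -0.64), and the other CDK classes lie between -0.72 and 0.77.

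The CDKB2 genes can be set beside these lists array by array. The median level of B-type cyclins was 2.39, 2.22 and 2.60 in nuclear against 6.58, 6.25 and 5.36 in cellular RNA, and among cellular arrays it was lowest in replicate 3, as both CDKB2 genes were. The embryo marker median was 2.69, 2.91 and 2.31 in nuclear against 7.19, 5.97 and 5.57 in cellular RNA. The seed coat median was 6.95, 5.75 and 5.99 in nuclear against 3.40, 5.40 and 6.59 in cellular RNA. From cellular replicate 1 to 3 the seed coat median rose. Over the same arrays CDKB2;2 (4.67, 3.93 and 3.02) and the medians of B-type cyclins and embryo markers fell. CDKB2;1 was highest on cellular replicate 2 and lowest on cellular replicate 3. On nuclear replicate 2, with the lowest seed coat median of its group, CDKB2;1 was at its highest nuclear level and CDKB2;2 at its lowest. The part of seed coat RNA in these differences was not tested.

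**Figure D4:**
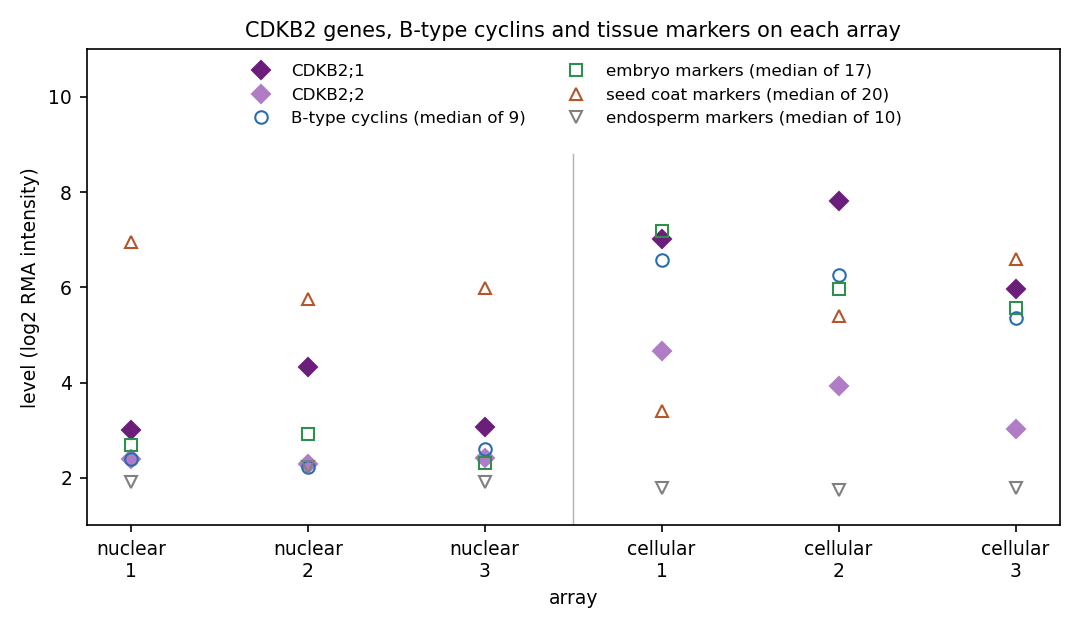
Levels of the CDKB2 genes and the medians of B-type cyclins, embryo, seed coat and endosperm markers on each array, as log2 RMA intensity. CDKB2;1 lies between 2.99 and 4.32 on nuclear and between 5.96 and 7.81 on cellular arrays, and the seed coat median between 5.75 and 6.95 and between 3.40 and 6.59.

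Genes with the most similar course over the 6 arrays were found by the root-mean-square distance between log2 values, each gene centred on its own mean, among 16150 loci whose higher group mean was above the median of all values. For CDKB2;1 these were AT3G60210 and AT2G37420, each at a distance of 0.26, with changes of -3.33 and -3.16. For CDKB2;2 they were AT3G09720, named RNA helicase 57 in RefSeq, at 0.09, and AT3G62310 at 0.10. The changes of CDKB2;1 and CDKB2;2 themselves were -3.47 and -1.51. All distances to nearest genes given here are the smallest among the 16150 loci, so they are low by selection. CDKA;1 had AT3G24255 at 0.13 and AT1G19370 at 0.16. CKS2 had AT3G56370 at 0.32 and CDKC2 (AT5G64960), a kinase of another CDK class, at 0.33. Its nuclear levels were 4.46, 4.89 and 3.04 and its cellular levels 4.86, 5.19 and 4.34, with replicate 3 the lowest of each group, as for CKS2. CDKB1;1, with its high nuclear replicate 1, was nearest to the pseudogene AT2G07729 (0.27) and to SKIP6 (0.32). CDKB1;2 was nearest to RLK4 (0.04) and ATSUV3 (0.06), and CKS1 to ARL2 (0.09) and HPT1 (0.11). A small distance is common for genes that vary little.

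Among the 7 genes themselves, CDKB2;2 was the member closest to CDKB2;1, at a distance of 1.17, yet 1565 of the loci tested, or 5.75%, were closer. The reverse did not hold, as the member closest to CDKB2;2 was CDKB1;2, at 0.55, and 74.4% of loci were closer to it than its own copy. From CDKA;1 the closest member was CDKB1;2, at 0.46, with 1183 loci closer.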

How the data were processed

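The authors deposited intensity values made with RMA, per the submitters' processing notes, on a linear scale, 1 row per locus and 1 column per array. RMA's version, the array type, the probes and the genome build are not given in the sources used here, and there are no detection calls. RMA normalizes between arrays, so a change can shift where the RNA pools differ in composition. Log2 was taken once, with no further normalization and no filter. Of 27826 rows, 27241 match RefSeq (TAIR10.1) and were tested, and 585 were left out except in 1 alternative.

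The test was limma 3.58.1 under R 4.3.3, two-sided, with moderated variances (residual degrees of freedom 4, prior 2.33), nuclear minus cellular, with a Benjamini-Hochberg adjusted p of 0.05 as the threshold. Precision is limited by there being 3 arrays in each group. Groups and replicate numbers come from the sample titles. Nothing says that replicates came from separate plants, so p-values measure the spread between these samples.

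The members and lists were chosen with earlier results of these data known. Named by rule were all 7 members, in each pathway list up to 2 called genes per direction with the largest change (without calls, those with the 2 lowest p), the 2 nearest profiles of each member, and 5 defining and the brightest marker genes. Some of the genes in counts of 5 or fewer are named as well. On simulated data for this comparison (27241 genes, 50 changed at each size) the test found 1 of those with a log2 change of 1, 20 for size 2, 33 for size 3 and 39 for size 4, with 7 false calls. The simulated noise was normal and drawn for each gene on its own. It lacks shifts shared by many genes of an array, so false calls in the real data may be more. Alternatives were cyclic loess, quantile normalization, brighter genes only, all rows, array weights, a replicate block, a trended robust variance and each array left out.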

Additional observations from a re-analysis of the deposited data

How the results depend on the processing

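Each of the 7 members was followed through 13 alternatives. CDKB2;1 stayed negative in all 13 (-3.95 to -3.01) and passed in 9. It was -3.01 after cyclic loess (adjusted p = 0.0497) and -3.10 when quantiles were equalized (adjusted p = 0.0456). With 1 array left out, CDKB2;1 ranged from -3.95 to -3.03 and CDKB2;2 from -1.94 to -1.11, the latter passing without cellular replicate 3. Signs turned for CDKB1;1 (-1.28 to 0.58 with 1 array left out, and 0.0116 with array weights), CKS1 (-0.0707 to 0.31) and CKS2 (-1.09 to 0.20). The number of members called lower ran from 0 to 2 over the arrays left out, and 0 were higher. All loci called ran from 282 to 2107, with 254 to 1688 lower and 28 to 419 higher, and pathway genes called lower from 6, without cellular replicate 2, to 19, with 1 higher (CYCD1;1) without cellular replicate 3. Cyclic loess gave 846 lower and 489 higher loci, so that 63.4% of calls were lower against 80.4% as deposited and 68.5% after quantile normalization. The median change of all loci was 0.13 as deposited and 0.02 after cyclic loess.

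Same-numbered nuclear and cellular samples did not deviate together (r of -0.05, -0.06 and -0.01 over loci), so the numbers are not taken as pairs. The replicate block gave 689 calls, 571 lower and 118 higher, and left CDKB2;1 at -3.47 (adjusted p = 0.0354). The block lowered the SE of CDKB2;1 from 0.57 to 0.30, of CDKB1;1 from 1.00 to 0.48 and of CKS2 from 0.74 to 0.33. It lowered that of CDKB1;2 and CDKB2;2 less, and raised that of CDKA;1 and CKS1. With 1 array left out, the difference between copies ran from -0.59 to 1.25 for the CDKB1 pair, from -2.42 to -1.55 for the CDKB2 pair and from -0.071 to 1.26 for CKS1 minus CKS2. Each of these moves was smaller than the pooled SD of the pair's arrays, but the sign turned in the first and last. With no detection calls, levels near the array medians, such as those of CDKB1;2 and the nuclear levels of CDKB2;2, may or may not be above background.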
